A study of Mus musculus with 30 samples.

Results

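The regions bound by the chromatin remodeller Snf2h in a mouse B-cell line were compared with the regions bound by cohesin in a mouse fibroblast line. The members were the 16793 regions on chromosomes 1 to 19 of the Snf2h list from wild-type CH12 cells, out of 17306 in that list and 624917 in the 8 lists analysed here. Each was set against 3 cohesin lists from NIH3T3 cells, which held 104020 (SMC1), 82401 (RAD21) and 98604 (SMC3) regions on the same chromosomes. For each Snf2h region the number of subunits with an overlapping region (at least 1 bp) was counted, and the distance between its summit (the base where the reads pile up highest) and the nearest cohesin summit was measured. The same was done after all cohesin regions had been moved by 20 kb, which keeps the number, the width and the broad distribution of the regions and gives the background. The move does not match positions for promoters or open chromatin, so an excess over it is an excess over nearby positions in general.

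The series holds 30 mouse samples on CTCF, nucleosomes and DNA methylation, of which 22 were not analysed here. wtCH12 is an untreated mouse B lymphoma line of wild-type genotype with no expressed vector. NIH3T3+EV is an immortalized mouse embryonic fibroblast line that stably carries a CpG-free control plasmid expressing beta-galactosidase. For scale only, mutCH12 was used, in which Cas9 removed zinc fingers 9 to 11 of CTCF from both alleles, and NIH3T3+BORIS, a single clone (clone2) that stably expresses the CTCF relative BORIS. All lines were crosslinked with formaldehyde and the chromatin was sheared to 200 to 600 bp. There was 1 library per group, so cell type, antibody and library cannot be told apart, no difference below has a replicate check, and no p-value is given. Peak lists carry no expression, so the cell types could not be checked against marker genes.

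Snf2h is the ATPase of the ISWI family of remodellers, which slide nucleosomes along DNA into regular arrays and are known to be needed for such arrays beside CTCF sites and for much of CTCF binding. Cohesin is a ring in which SMC1 and SMC3 form the arms and RAD21 closes them. It extrudes chromatin loops and is halted at bound CTCF, so that in mammalian cells its sharp peaks lie mostly at CTCF sites, many of which are shared between cell types. A place with Snf2h in 1 cell type and cohesin in another is therefore a candidate for a site used in both, and the comparison gives how many such places there are and how exactly the signals coincide.

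About 1 in 4 B-cell Snf2h regions in the lists as deposited lay on a fibroblast cohesin site. The share was 13.6% (12.3 to 14.9) where all 4 lists were held to a −log10 q of 10 or more. Of the 16793 regions, 4306 (25.6%, exact 95% interval 25 to 26.3) overlapped all 3 subunits, against 482 (2.87%, 2.62 to 3.13) with the cohesin lists moved, 8.93 times fewer. A single subunit was called at 672 regions (4.00%, moved 1.64%) and a pair of subunits at 556 (3.31%, moved 1.13%). The other 11259 (67.0%, 66.3 to 67.8) overlapped none, against 94.4% after the move. At least 1 subunit was thus found at 33.0% of the regions, with 5.64% after the move. Of the 5534 regions with any cohesin, 77.8% (76.7 to 78.9) had all 3 subunits, compared with 50.9% (47.7 to 54.1) of the 947 regions that met cohesin after the move. Intervals cover counting error only, and neighbouring regions are not independent.

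**Figure D1:**
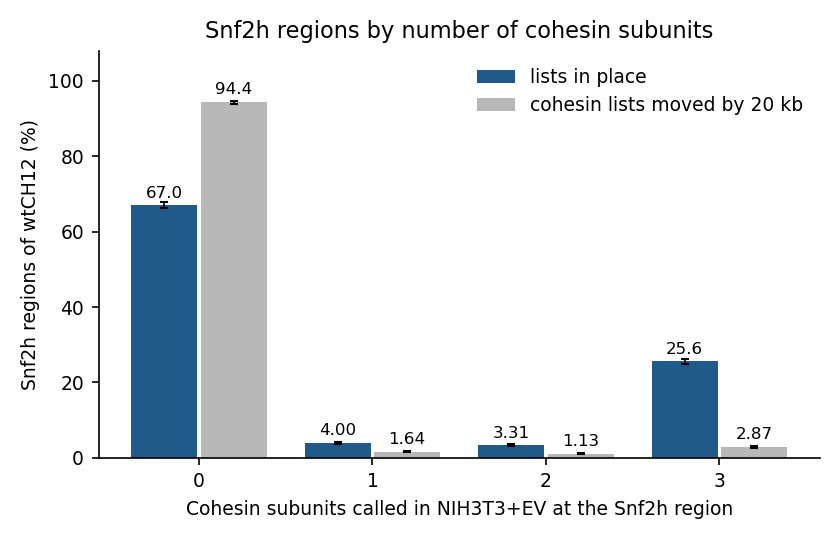
Percent of the 16793 Snf2h regions of wtCH12 (vertical axis) by the number of NIH3T3+EV cohesin subunits that overlap them (horizontal axis), in place (blue) and with the cohesin lists moved by 20 kb (grey); error bars are exact 95% binomial intervals. The bar for 3 subunits stands at 25.6% in place and 2.87% after the move, whereas the bars for 1 and 2 subunits are 4.00% or lower.

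The counts of regions with a single subunit had the order of the list lengths. SMC1, an arm of the ring and the longest list, overlapped 30.7% of Snf2h regions (30.0 to 31.4, moved 4.67%). SMC3, the other arm, overlapped 29.5% (28.8 to 30.2, moved 4.35%), and RAD21, the closing subunit and the shortest list, 27.3% (26.7 to 28.0, moved 3.48%). Among regions with a single subunit 382 had SMC1, 188 SMC3 and 102 RAD21. Among those with a pair, 373 had SMC1 with SMC3, 93 SMC1 with RAD21 and 90 RAD21 with SMC3. Each of these 6 classes exceeded its moved count by 2.11 to 3.10 times, well under the 8.93 times of the class with all 3.

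The cohesin classes were much the same in the other fibroblast line. Of the 4306 regions with 3 subunits in empty-vector cells, 3901 (90.6%) also had 3 in BORIS cells and 51 (1.18%) had none. Of the 11259 with no subunit, 10886 (96.7%) had none in BORIS cells and 43 (0.382%) had all 3. The intermediate classes were less fixed, and of the 672 regions with a single subunit 301 (44.8%) had none in BORIS cells. With the BORIS lists in place of the empty-vector lists, 24.8% (24.1 to 25.4) of Snf2h regions had 3 subunits. With the 23441 Snf2h regions of mutCH12 in place of those of wtCH12 the share was 23.3% (22.8 to 23.9, moved 3.09%).

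The distance between summits separated the regions into a near and a far group. Over all Snf2h regions the nearest cohesin summit of any subunit lay at a median of 1678 bp (quartiles 121 and 7803 bp), against 4660 bp (1635 and 11352 bp) after the move. Within 100 bp there were 3843 summits, 22.9% (22.3 to 23.5), against 2.42% after the move, and the share was 11.8% (10.6 to 13.1) where all 4 lists were held to a −log10 q of 10 or more. The excess shrank with distance, from 11 times the moved share within 10 bp to 3.82 times within 500 bp, 1.28 times within 5 kb and 1.02 times within 20 kb. Regions without an overlapping subunit showed only a small excess close by. Of the 11259, 16.6% (16.0 to 17.3) had a cohesin summit within 1 kb, against 12.1% (11.6 to 12.6) of the regions without a subunit after the move. Within 5 kb the shares were 50.3% and 49.0%. Within 10 kb they were 69.4% and 70.3%. Of all 16793 Snf2h regions, 3367 had no cohesin region of any subunit within 10 kb, 20.1% (19.4 to 20.7) against 27.5% after the move. The total of 16793 includes the regions with an overlapping subunit, so this difference includes the overlap itself.

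At the 4306 regions with 3 subunits the Snf2h summits scattered around the cohesin summit more widely than the cohesin summits did among themselves. The nearest cohesin summit of any list was at a median of 58 bp (56 to 60). The nearest of 3 is drawn towards 0, so the middle of the 3 subunit summits was also used, and its median distance from the Snf2h summit was 71.5 bp (70 to 74). By subunit the median distances were 72 bp for SMC1, 72 bp for RAD21 and 74 bp for SMC3. At the same regions the cohesin summits differed from each other by a median of only 13 bp (SMC1 and RAD21), 11 bp (SMC1 and SMC3) and 13 bp (RAD21 and SMC3). Within 50 bp of each other were 85.4 to 87.2% of the subunit pairs, against 32.8 to 34.6% of the pairs of Snf2h with a subunit. The Snf2h summits of both CH12 lines, in the 2330 of these regions also called in mutCH12, differed by a median of 50 bp (quartiles 19 and 106 bp). The distance of Snf2h from cohesin was thus several times the spread between the cohesin lists, and less far above the spread between the Snf2h lists. The 482 regions that met 3 subunits after the move had a median distance of 130 bp (115 to 145) to the middle summit.

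The distances showed a plateau and then a fall. Counted in rings of 20 bp around the middle cohesin summit, the share of the 4306 regions was 13.4% (12.4 to 14.4) at 0 to 20 bp, 12.9% at 20 to 40 bp, 14.7% (13.7 to 15.8) at 40 to 60 bp and 14.0% (13 to 15.1) at 60 to 80 bp. It then fell to 10.4% at 80 to 100 bp, 8.08% at 100 to 120 bp and 4.99% (4.36 to 5.69) at 120 to 140 bp. A summit was thus as frequent 60 to 80 bp away as on the cohesin summit itself. In chromosome coordinates, 2141 cohesin summits lay to the right and 2151 to the left of the Snf2h summit, each at a median of 72 bp. No CTCF motif orientation was used, so a preferred side of a site cannot be read from these counts. In the 625 regions whose Snf2h summits in wtCH12 and mutCH12 lay within 20 bp of each other, a subset chosen after the values were seen, the median was 74 bp (68 to 81) and the ring at 0 to 20 bp held 11.2% (8.84 to 13.9) against 14.7% (12.0 to 17.7) at 60 to 80 bp.

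**Figure D2:**
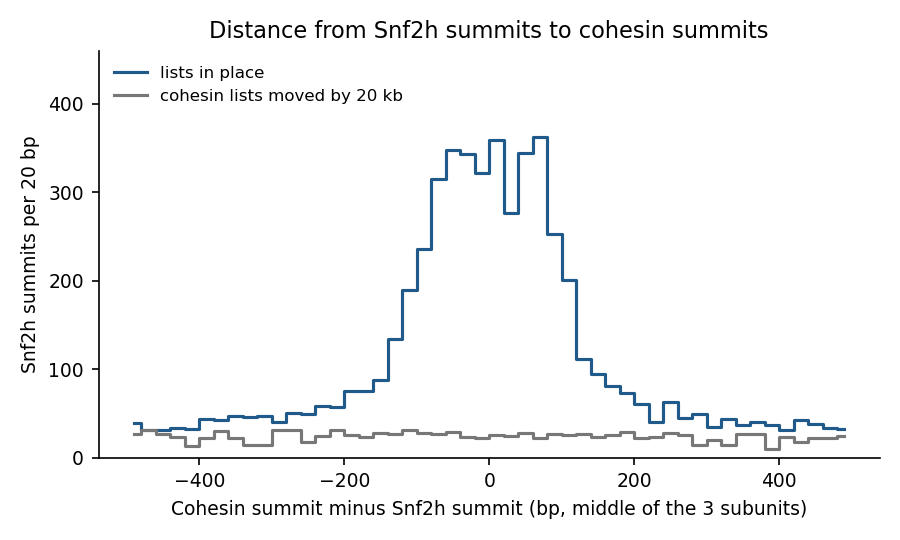
Number of Snf2h summits per 20 bp (vertical axis) by the signed distance in bp from the Snf2h summit to the middle of the 3 nearest NIH3T3+EV cohesin summits (horizontal axis), for all 16793 regions, in place (blue) and with cohesin moved by 20 kb (grey). The blue line forms a flat top out to about 80 bp on either side and falls by 140 bp, and the grey line is flat throughout.

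The side on which Snf2h lay was compared between both CH12 lines as a description. In 1869 regions with 3 subunits that were also called in mutCH12 and whose wtCH12 summit lay over 30 bp from the middle cohesin summit, the mutCH12 summit was on the same side in 1536 (82.2%, 80.4 to 83.9). Where the mutant summit was over 30 bp away too, the share was 85.6% (83.8 to 87.2) of 1642. Both offsets were measured from the same cohesin summit and the regions of both lines had to overlap to be counted, which in itself favours the same side. The share that would be found without a shared side was not measured, so nothing is read from these values. The offset in these 2330 regions had a median of 77 bp in wtCH12 and 89 bp in mutCH12.

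**Figure D3:**
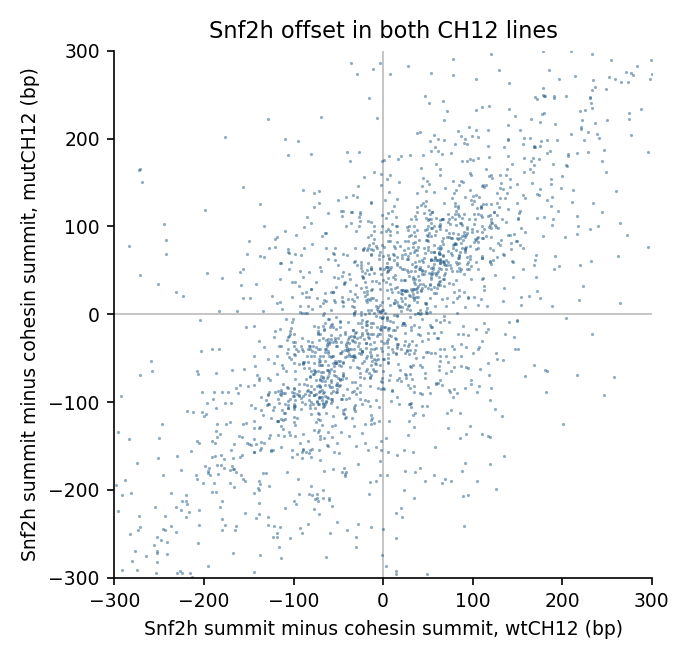
Snf2h summit minus middle NIH3T3+EV cohesin summit in bp, in wtCH12 (horizontal axis) and mutCH12 (vertical axis), 1 point per Snf2h region with 3 subunits that was called in both lines, for the 2067 of 2330 regions within 300 bp in both. Most points lie in the lower left and upper right quadrants, where the summits of both lines are on the same side of cohesin.

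The offset showed no trend with the strength of either signal. Across 5 equal groups of the 4306 regions by Snf2h −log10 p, the median distance to the middle summit was 75, 70, 70, 68 and 75.5 bp from weakest to strongest. Across 10 equal bins of the cohesin sites by strength it lay between 68.5 and 80 bp. Few cohesin sites carried several Snf2h summits. Of the 64891 merged cohesin regions called with all 3 subunits, 5549 (8.55%) had 1 Snf2h summit within 1 kb, 357 (0.550%) had a pair and 7 had more, 6 of them with 3 summits. In the 357 pairs the summits were a median of 584 bp apart (quartiles 425 and 778 bp), and in 184 (51.5%, 46.2 to 56.8) they lay on opposite sides of the cohesin summit. The closest pair was 241 bp apart, so these counts do not cover Snf2h signals nearer to each other than that. Pairs were not counted after a move, so their number and sides have no background here.

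Strong Snf2h regions were less often at cohesin sites than weak ones. Regions were ranked by the authors' −log10 p within the list and divided into 10 equal bins, with bin 1 the weakest. In bins 1 to 6 the share with 3 subunits stayed between 27.7 and 29.4%. It was 27.0% in bin 7, 23.3% in bin 8, 17.6% (15.8 to 19.5) in bin 9 and 17.8% (16.0 to 19.7) in bin 10, against 28.5% (26.4 to 30.8) in bin 1. The shares after the move were 2.50% in bin 1 and 4.17% in bin 10, where regions are wider (median 339 bp against 210 bp). Of the regions with 3 subunits 6.94% (6.20 to 7.74) belonged to bin 10, compared with 10.9% (10.3 to 11.5) of regions without a subunit. Bin 10 more often had no cohesin region within 10 kb, at 23.8% (21.7 to 25.9) against 17.4% (15.6 to 19.3) in bin 1. That difference includes the overlap itself, since 73.0% of bin 10 and 63.7% of bin 1 had no overlapping subunit. The share without cohesin within 10 kb was not counted by bin after the move. A stricter threshold moved the overlap accordingly. At a −log10 q of 10 or more the Snf2h list held 2788 regions, of which 17.7% (16.3 to 19.2) had 3 subunits, and 13.6% (12.3 to 14.9) had them when the cohesin lists met the same threshold.

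The local background moved with Snf2h strength. The background rate that the peak caller had set against a summit was recovered from the fold and the p-value, and it was over 2 times the lowest rate of the list in 29.6% of bin 1 and 54.5% of bin 10. Among the 10770 regions with a rate at most 2 times the lowest, the share with 3 subunits was 27.7% (26.8 to 28.5), and when these were divided into 10 bins of their own it fell from 32.8% (30.0 to 35.7) in the weakest to 13.6% (11.7 to 15.8) in the strongest. The difference between bins was thus larger without regions on a high background. This selection was made after the values were seen.

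Cohesin sites gave the opposite order. The 3 cohesin lists were merged and the 64891 regions called with all 3 were ranked by the lowest of their 3 within-list percentiles. Of 10 equal bins, an Snf2h region overlapped 3.42% (2.99 to 3.89) of the weakest and 16.2% (15.3 to 17.1) of the strongest, and 6.88% (6.69 to 7.08) of all. After a move of the Snf2h list these shares were 0.925%, 1.45% and 0.972%. With only the 2788 Snf2h regions above the stricter threshold the share of all was 0.821% (0.753 to 0.894). Strong cohesin regions are wider, with a median of 598 bp in the strongest and 304 bp in the weakest bin, so the share with an Snf2h summit within 100 bp of the middle cohesin summit was also counted, which does not depend on width. It was 1.77% (1.47 to 2.12) in the weakest and 10.5% (9.74 to 11.2) in the strongest bin. Merged regions with fewer subunits overlapped Snf2h less often, at 2.44% (2.23 to 2.66, moved 0.711%) for a pair and 1.62% (1.50 to 1.76, moved 0.550%) for a single subunit. They were also narrower, with medians of 210 and 143 bp against 372 bp for 3 subunits, and a narrower region meets Snf2h less often in itself. The ratio to the moved share was 2.96 for a single subunit, 3.43 for a pair and 7.08 for 3. Seen from Snf2h, the strongest cohesin bin held 24.6% of the regions with 3 subunits and the weakest 4.12%.

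**Figure D4:**
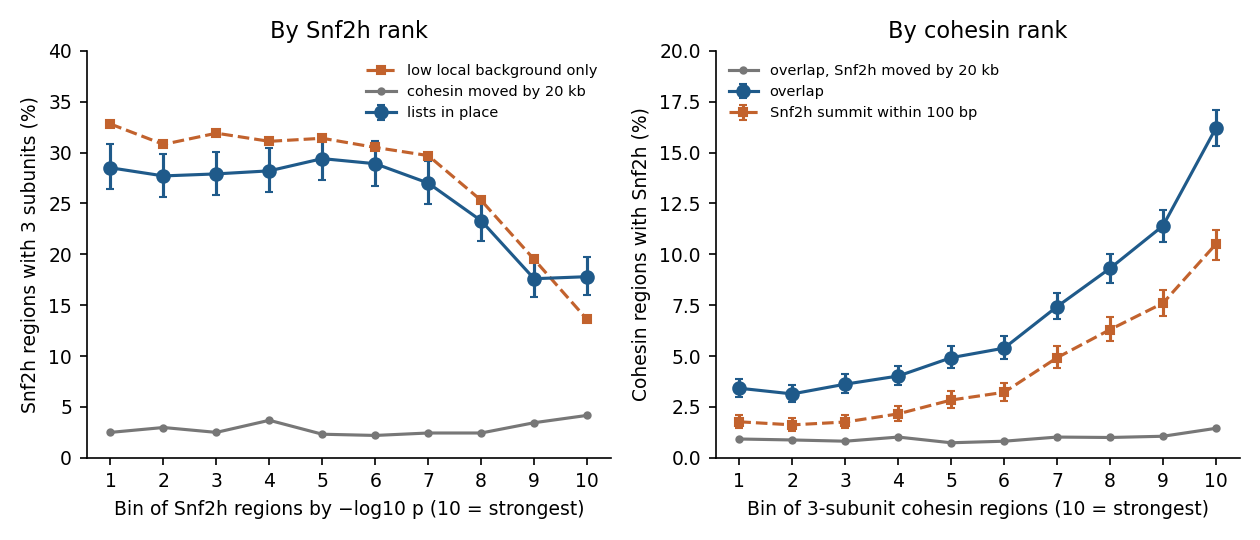
Left, percent of Snf2h regions with 3 subunits (vertical axis) by 10 equal bins of Snf2h −log10 p (horizontal axis, 10 the strongest), for all regions (blue), for regions on a low local background, binned on their own (orange) and with cohesin moved by 20 kb (grey). Right, percent of 3-subunit cohesin regions (vertical axis) by 10 equal bins of cohesin rank (horizontal axis) that overlap Snf2h (blue), have an Snf2h summit within 100 bp (orange) or overlap the Snf2h list moved by 20 kb (grey); error bars, where drawn, are exact 95% binomial intervals. The blue line falls from 28.5 to 17.8% on the left and rises from 3.42 to 16.2% on the right.

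Within the regions with 3 subunits the strengths of Snf2h and cohesin were only weakly related, and the sign depended on the measure. Across the 4301 that lay in a single merged cohesin region, Snf2h −log10 p and the lowest cohesin percentile had a Spearman rho of −0.0855 and Snf2h fold and that percentile one of 0.0184, a description over regions that share the same 4 libraries. From the weakest to the strongest bin of cohesin sites the median Snf2h −log10 p was 8.28 and 7.70, the median pileup 25 and 22, and the median fold 3.45 and 3.56. In the weakest and the strongest of the 5 groups by Snf2h −log10 p the median cohesin percentile was 79.5 and 71.0.

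The Snf2h regions with and without cohesin had similar median widths, and those with 3 subunits ranked somewhat lower in the list. The median percentile by −log10 p was 45.4 with 3 subunits and 52.3 with none, at a median −log10 p of 7.96 and 8.48. The median width was 235 bp (quartiles 190 and 309 bp) with 3 subunits and 238 bp (189 and 305 bp) with none. The fold at the summit, which in the authors' lists is the pileup plus 1 divided by the local background rate plus 1, had a median of 3.56 (3.20 to 4.06 between quartiles) with 3 subunits and 3.61 (3.16 to 4.36) with none. The median pileup, the number of fragments over the summit, was 23 and 25. Another Snf2h summit lay within 10 kb of 30.0% (28.7 to 31.4) of the regions with 3 subunits and 33.3% (32.4 to 34.2) of those with none. Regions with 3 subunits were less often also called in mutCH12, at 54.1% (52.6 to 55.6) against 64.1% (63.2 to 65.0) of regions with none. Read the other way, 30.7% (29.5 to 31.8) of the 6446 regions not called in mutCH12 had 3 subunits, compared with 22.5% (21.7 to 23.3) of the 10347 called there. Strength moved with this as well, since 33.4% of bin 1 and 98.0% of bin 10 of the Snf2h ranking were called in mutCH12. Within bin 1 the shares with 3 subunits were 29.0% (26.3 to 31.7) for regions not called in mutCH12 and 27.6% (24.0 to 31.5) for regions called there. Within bin 10 they were 30.3% (15.6 to 48.7, 10 of 33) and 17.5% (15.7 to 19.5, 289 of 1647).

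The Snf2h regions of highest −log10 p at cohesin sites included several on a very high cohesin background. The region with the highest −log10 p of the list lay on chromosome 9 from 35112719 to 35113251, with an Snf2h fold of 20.6. Its cohesin folds were 2.34 for SMC1, 2.56 for RAD21 and 2.26 for SMC3, with background rates of 98.8, 90.7 and 103 fragments, about 100 times the lowest rate of each list. Chromosome 12 from 3109790 to 3110201 had an Snf2h fold of 25.7 from a pileup of 269, and cohesin folds of 2.40, 2.62 and 2.32. Chromosome 6 from 103598967 to 103599362 had the highest Snf2h fold of the list, 26.7, from a pileup of 250, and cohesin folds of 2.62, 2.89 and 2.55. Chromosome 18 from 90771507 to 90772031 had an Snf2h fold of 19.6 and cohesin folds of 2.42, 2.52 and 2.30. The list medians of the cohesin fold were 6.78 (SMC1), 7.54 (RAD21) and 6.88 (SMC3). The cohesin pileups on chromosomes 9 and 12 were 232, 234 and 234, the highest value found in each list, and those on chromosome 6 were 229, 233 and 231. Pileups stop at that value in each list, so the cohesin folds at these summits may be limited by it and are not to be read as low binding. On chromosome 18 the pileups were 189, 181 and 187. The region on chromosome 17 from 46972383 to 46972804 differed, with an Snf2h pileup of 262 (fold 20.4), cohesin folds of 5.78, 4.81 and 5.52, and cohesin background rates of 2.26 to 2.98. It had 1 subunit in BORIS cells, whereas the other 4 regions had 3. All 5 were also called in mutCH12. Their coordinates are those of the lists, in mm9, and no region was assigned to a gene because the gene table at hand is of GRCm38.

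Such cohesin summits were rare in general. A background rate over 10 times the lowest of the list was found at 0.156% of SMC1, 0.212% of RAD21 and 0.168% of SMC3 regions. It was found with all 3 subunits at 28 of the 50 strongest Snf2h regions with 3 subunits (56.0%, 41.3 to 70) and at 50 of 299 (16.7%, 12.7 to 21.4) in bin 10 of the Snf2h ranking. In bin 1 it was found at 0 of 479, which allows a share of up to 0.626%. Without these cohesin regions 14.8% (13.1 to 16.5) of bin 10 and 28.5% (26.3 to 30.7) of bin 1 had 3 subunits. The threshold of 10 times was chosen after the values were seen.

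The 5 regions of highest −log10 p with no cohesin region within 10 kb had pileups of 141 to 238. Pileups were 239 to 269 at 4 of the 5 above, and that of the region on chromosome 9 was not recovered. Both sets were picked by −log10 p, which depends on the pileup, so no difference is read from them. The median pileup was 23 over all regions with 3 subunits and 25 over those with none. Chromosome 14 from 102674862 to 102675318 had a fold of 22.2 from a pileup of 238, and its nearest cohesin summit was 53723 bp away. Chromosome 12 from 98299569 to 98300064 had a fold of 21.0 and a pileup of 211, with cohesin at 68854 bp. A further region on chromosome 12, between 75904788 and 75905560, had a fold of 16.3 and a pileup of 198. The region on chromosome 14 between 9119072 and 9119434 had a fold of 20.4 and a pileup of 141. That on chromosome 13 between 3372099 and 3372977 had a fold of 12.4 and a pileup of 186. The Snf2h background rate at these 5 summits was between 5.97 and 14.1 fragments. All 5 were called in mutCH12, and the region on chromosome 12 at 75904788 had 2 subunits in BORIS cells while the other 4 had none.

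The widest Snf2h regions had high backgrounds of their own. The widest spanned 4555 bp of chromosome 1, starting at 24618422 and ending at 24622976, with a fold of 2.35 over a background rate of 130. Both others were on chromosome 17. One covered 3867 bp between 39979988 and 39983854 (fold 2.06, rate 120), the other 2522 bp between 13743513 and 13746034 (fold 6.01, rate 38.6). The lowest background rate of the Snf2h list was 3.36. The region of 3867 bp had 3 cohesin subunits with folds of 2.11, 2.77 and 2.12, and the other 2 regions had none.

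The share with 3 subunits was similar along the genome. It ranged from 21.8% (19.5 to 24.3, of 1151 regions) on chromosome 1 to 28.8% (26.0 to 31.7, of 1006) on chromosome 7, and the intervals of these extremes among 19 chromosomes did not overlap. After the move it was between 1.31% (chromosome 13) and 3.58% (chromosome 5). The share of 3-subunit cohesin regions with Snf2h varied more, from 5.20% on chromosome 12 to 9.99% on chromosome 14. Chromosome 14 had 37.5 Snf2h regions per 100 such cohesin regions, and the other chromosomes had 20.5 to 29.9. The share of its Snf2h regions with 3 subunits, 25.4% (22.6 to 28.4), was close to that of the genome.

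**Figure D5:**
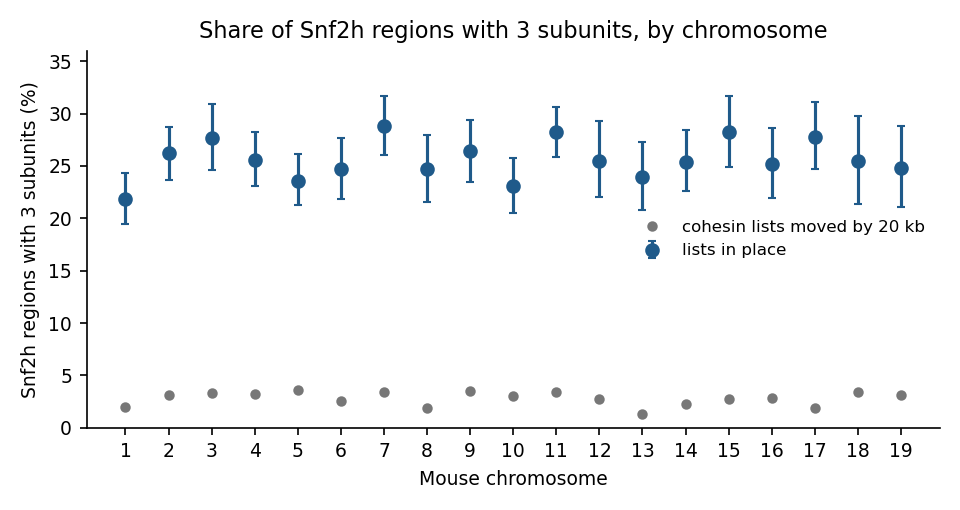
Percent of Snf2h regions with 3 cohesin subunits (vertical axis) on each of the 19 autosomes (horizontal axis), in place (blue, with exact 95% binomial intervals) and with cohesin moved by 20 kb (grey). The blue points lie between 21.8 and 28.8% and the grey points between 1.31 and 3.58%.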

How the data were processed

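The authors deposited peak lists in the 10-column narrowPeak layout without headers. MACS2, Bowtie2 and the mouse build mm9 are named in the submitters' processing notes; settings, controls and filters are not given in the sources used here. Positions on chromosome 1 reached 197182423. Region names of the Snf2h list carry a replicate tag that the labels do not explain, so the list was taken as 1 sample.

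The deposited score, fold (a ratio), −log10 p and −log10 q describe the summit and were used only within their own list. The lowest −log10 q was 1.33 for Snf2h and 1.31 to 1.32 for cohesin. The pileup and background rate were solved from the deposited fold, taken as (pileup + 1)/(rate + 1), and −log10 p as a Poisson tail. This gave whole pileups within 0.001 in −log10 p for 100% of summits with a −log10 p under 300. The lowest rate over the narrowest region, a stand-in for depth, gave 20.6 fragments per kb for Snf2h in wtCH12 and 13.8 in mutCH12. For cohesin in NIH3T3+EV it gave 7.76 to 8.79. Comparisons of wtCH12 with mutCH12 were not adjusted for this difference.

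Overlap, distances, merging (overlapping or touching regions) and Clopper-Pearson intervals were computed with Python 3.11.15, pandas 2.3.3 and scipy 1.17.1, and tested on simulated lists. The limit given for a count of 0 is 3 counts over the total. Groups were taken from the labels. Regions named individually were the 5 of highest −log10 p, at most 3 kb wide, with 3 subunits or with no cohesin within 10 kb, and the 3 widest. Alternatives covered thresholds, list lengths, overlap rules, widths, chromosomes, subunits, other lists and other moves. The comparison, lists and rules were chosen with earlier results of these data known. No sequence is printed, since no mm9 genome was used here.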

Additional observations from a re-analysis of the deposited data

How the results depend on the processing

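Of 64 values under alternatives, 22 stayed within the interval of the reported value and 42 did not; 10 of the values come from 4 alternatives added after seeing the data (low local background, no cohesin on a high background, regions called in mutCH12, middle summit). The share of regions with 3 subunits (25.6%) was 13.6% at a −log10 q threshold of 10 for all 4 lists, 17.7% with it for Snf2h only, 20.7% for cohesin only, 24.7% with equally long cohesin lists, 22.0% where 50% of the shorter region must be shared, 20.5% with the Snf2h summit inside the cohesin region, 27.9% without RAD21, 24.8% with BORIS cells, 23.3% with mutCH12, 27.7% on low local background and 22.5% for regions called in mutCH12. The share with no subunit (67.0%) was 80.8% with this threshold for all lists, 73.2% for cohesin only, 70.2% with 50% overlap, 71.8% by summit, 67.8% with X and Y, 67.8% with mutCH12 and 65.7% on low background. The share within 100 bp (22.9%) was 11.8%, 16.5% and 17.9% with the threshold in all lists, Snf2h only and cohesin only, and 20.3% with mutCH12. The median distance with 3 subunits (58.0 bp) was 68.5, 64.5 and 61.0 bp under the same thresholds, 54.0 bp with BORIS cells, 69.0 bp with mutCH12, 62.0 bp for regions called in mutCH12 and 71.5 bp to the middle summit. The share of cohesin regions with Snf2h (6.88%) was 1.02%, 0.821% and 9.08% under the same thresholds, 6.30% with 50% overlap, 4.86% by summit and 8.95% with mutCH12. Bins 10 and 1 of the Snf2h ranking (17.8% and 28.5%) were 13.1% and 23.7% with the threshold for cohesin, 12.2% and 22.2% by summit, and 13.6% and 32.8% on low background. Bin 10 was at 14.8% without cohesin regions on a high background. Bin 10 stayed below bin 1 in each of these alternatives that was run on both. Among the regions not called in mutCH12 it did not, with 30.3% (15.6 to 48.7, 10 of 33) in bin 10 and 29.0% in bin 1. The background values lay between 2.77 and 2.92% for 3 subunits and between 2.41 and 2.47% within 100 bp for moves of 10 to 100 kb and of 20 kb in the other direction. The causes of these shifts were not tested. No paired analysis was possible because each group had 1 list. A region absent from a list can be bound below the threshold.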

Other observations

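The pileups recovered at the summits ended at the same multiple of the narrowest region in each list. The highest was 326 for Snf2h in wtCH12, whose narrowest region was 163 bp, 232 for SMC1 (116 bp), 234 for RAD21 (117 bp) and 234 for SMC3 (117 bp), each exactly 2 times the narrowest region. In the SMC1, RAD21 and SMC3 lists 11, 12 and 10 summits stood at that value, and 9 did in the Snf2h list. The cohesin summits at the strongest Snf2h region, on chromosome 9, were among them, with pileups of 232, 234 and 234. At the Snf2h region on chromosome 12 at 3109790 the cohesin pileups were again 232, 234 and 234. Heights at such summits cannot be ordered, because they share the highest value of their list.

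The local backgrounds of the 3 cohesin lists were in nearly the same proportion at these places. As multiples of the lowest rate of each list they were 97.4, 97.8 and 97.4 (SMC1, RAD21 and SMC3) at the region on chromosome 12, 87.9, 88.0 and 87.6 at that on chromosome 6, and 78.4, 78.6 and 78.6 at that on chromosome 18. They were less alike at the wide region on chromosome 17 at 39979988, with 96.1, 92.3 and 94.8. At the region on chromosome 17 at 46972383, the only named region with 3 subunits on a low background, they were 3.02, 2.56 and 2.20.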
